A study of Homo sapiens with 6 samples.

Results

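The human oligoadenylate synthetase family consists of OAS1, OAS2, OAS3 and OASL, and all 4 genes were found by symbol among the 18678 genes of the expression table. They were chosen as a gene family, with earlier results of these data known. The libraries were made with a stranded mRNA kit from Cal27, an established line of tongue squamous carcinoma cells, and from Cal27-shGRK2, its derivative with a short hairpin RNA against the receptor kinase GRK2. Both groups were grown in medium with fetal bovine serum and harvested at the same stated confluence. The labels do not say whether Cal27 carried a control vector, nor whether Cal27-shGRK2 was a clone or a pool. They name 3 libraries per group, but replicates 0 and 1 of Cal27-shGRK2 held the same value in every gene. No other pair of libraries within a group matched in more than 94 of the 18678 genes. Replicates 0 and 1 of Cal27-shGRK2 therefore count as 1 sample here, called the shared library. Thus 3 Cal27 libraries were compared with 2 Cal27-shGRK2 libraries. Whether the libraries came from separate cultures is not stated. The p-values therefore reflect spread among libraries that may be purely technical. In such bulk samples, fewer cells with a transcript and less transcript per cell cannot be told apart.

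The family belongs to the antiviral response to interferon. OAS1, OAS2 and OAS3 are enzymes that bind double-stranded RNA and then join ATP into short chains with 2-5 linkages, called 2-5A. These chains act as a second messenger that leads to the cleavage of viral and cellular RNA. OASL has lost this enzyme activity, carries ubiquitin-like domains, and is known to enhance signalling by the RNA sensor RIG-I.

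The genes lie on chromosome 12. On hg38, in GENCODE version 29, OAS1 (ENSG00000089127.12) spans 112906777 to 112933222, OAS3 (ENSG00000111331.12) 112938352 to 112973249 and OAS2 (ENSG00000111335.12) 112978395 to 113011723, in that order on the plus strand. OASL (ENSG00000135114.12) lies apart on the minus strand, from 121019111 to 121039242. The longest coding transcript has 6 exons and 2416 bases for OAS1, 10 exons and 4734 bases for OAS2, 16 exons and 6719 bases for OAS3, and 6 exons and 3266 bases for OASL. The annotated antisense gene AC004551.1 runs on the minus strand from 112907628 to 113017751, over all of OAS3 and OAS2 and all of OAS1 but its 5′ end. The kit keeps strand, but the sources used here do not give the strand setting of the counting, so reads of that gene and of the cluster may not have been told apart. Sequence shared within the family was scarce. Of 31-base words in the annotated transcripts, OAS1 and OASL each shared 1 with another member, and OAS2 and OAS3 shared 0.

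RefSeq promoter windows, from 250 bases before to 50 after the transcription start on GRCh38.p14, were matched for 2 of the 4 genes, OAS1 and OAS3. They were searched on both strands for GAAANNGAAA, the core of the interferon-stimulated response element, for AANNGAAA, the shorter core bound by interferon regulatory factors, which every GAAANNGAAA match contains, and for TTCNNNGAA, the core of the gamma-activated site. The 30-base stretches below hold the matches to the first 2 motifs, all on the plus strand, and are shown because these are the only members with a window. Capitals mark the bases of a match.
OAS1 (chr12:112906899-112906928): tctgatttgcaAAAGGAAAgtgcaaagaca
OAS1 (chr12:112906935-112906964): cccttctgaggAAACGAAAccaacagcagt
OAS3 (chr12:112938319-112938348): ctagaaagAAACGAAACTGAAAgcagggaa
OAS3 (chr12:112938452-112938481): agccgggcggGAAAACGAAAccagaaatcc
In OAS3 the matches lay at -147 to -134 and -12 to -3 from the RefSeq start, each with a full GAAANNGAAA. In OAS1 they lay at -52 to -45 and -16 to -9, and held only the shorter AANNGAAA. GAAANNGAAA occurred in 3.57% of all 35116 promoter windows of this length, AANNGAAA in 22.8% and TTCNNNGAA in 7.66%. In the 13245 windows of tested genes the shares were 2.88%, 17.0% and 6.18%. TTCNNNGAA matched in OAS1, at -168 to -160, and not in the OAS3 window. Among 36 interferon-stimulated effector genes listed for comparison, 31 had a window, of which 24 (77.4%) held GAAANNGAAA, 29 (93.5%) AANNGAAA and 9 TTCNNNGAA. A match describes the letters and is not evidence of binding.

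All 4 family members were lower in Cal27-shGRK2, but by very different amounts. OASL was 7.26-fold lower, OAS2 3.17-fold, OAS1 1.90-fold and OAS3 1.43-fold, as ratios of mean FPKM (mapped fragments scaled by transcript length and library total). All 4 passed the test, a limma fit on log2(FPKM + 1) over 13377 genes with an adjusted p threshold of 0.05, in which 14.6% of all genes tested were called lower, 15% higher and 29.6% in either direction. That was 1949 genes lower and 2008 higher. After rescaling every library to 1 common total it was 1575 lower and 2927 higher, of the 14483 genes that then passed the filter. Without the shared Cal27-shGRK2 library the calls numbered 2600 rather than 3957.

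OASL had 14.4, 15.9 and 14.9 FPKM in the Cal27 libraries and 2.12 and 2.03 FPKM in the Cal27-shGRK2 libraries. Both knockdown libraries lay far under every Cal27 library, at 13.8% of the Cal27 mean. On the log2 scale it fell by 2.38 ± 0.08 (SE, n = 3 and 2), with a limma adjusted p of 9.1e-12. It ranked 31st from the lowest log2 fold change among the 13377 genes. OASL is the member without synthetase activity.

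OAS2, which is built from 2 synthetase units, had 20.4, 21.4 and 21.2 FPKM in Cal27, against 6.34 and 6.94 FPKM in Cal27-shGRK2. The groups did not overlap, and the spread within each was small beside the difference. It fell by 1.53 ± 0.07 on the log2 scale (SE, n = 3 and 2), with a limma adjusted p of 4.6e-10.

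OAS1, with a single synthetase unit, had 20.6, 19.4 and 18.8 FPKM in Cal27, against 10.1 and 10.5 FPKM in Cal27-shGRK2. Again the groups did not overlap. The fall was 1.90-fold, or -0.86 ± 0.07 as a log2 fold change (SE, n = 3 and 2), with a limma adjusted p of 2.2e-07.

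OAS3, with 3 units and a preference for long double-stranded RNA, was the most abundant member in every library. It had 41.0, 41.0 and 40.8 FPKM in Cal27, against 27.5 and 29.7 FPKM in Cal27-shGRK2, with no overlap. This was the smallest fall of the family, -0.50 ± 0.06 on the log2 scale (SE, n = 3 and 2), with a limma adjusted p of 1.9e-05.

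Groups that did not overlap, with Cal27-shGRK2 lower, were found in 27.4% of all genes tested. An exact two-sided permutation test gave p = 0.1 for each member, which is the lowest value that 5 libraries allow. In the authors' deposited table all 4 are marked significant, with log2 fold changes of -2.81 (q = 6.1e-04) for OASL, -1.59 (q = 6.1e-04) for OAS2, -0.91 (q = 0.013) for OAS1 and -0.54 (q = 0.015) for OAS3. These are log2 ratios of the authors' condition values, without the added 1 of the limma scale. The authors' Cal27-shGRK2 value was also not the mean of the 2 distinct libraries (6.98 against 6.64 FPKM for OAS2).

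**Figure D1:**
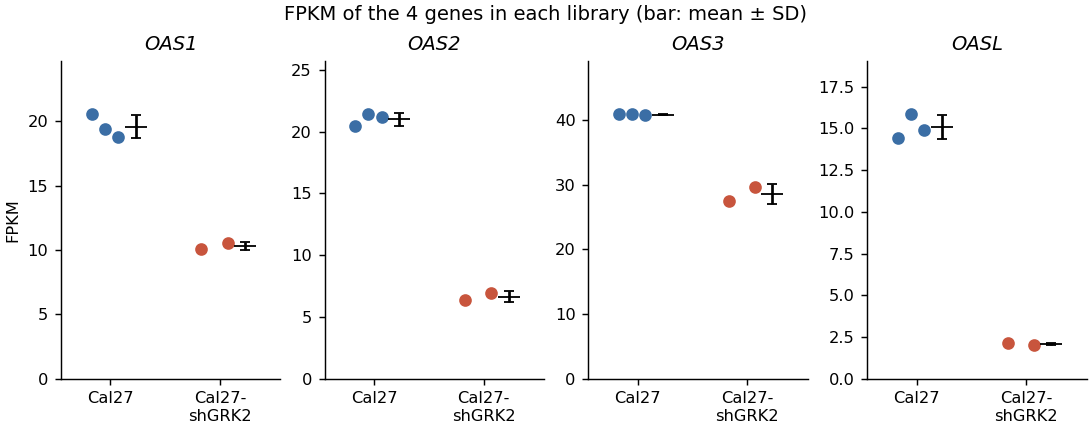
FPKM of OAS1, OAS2, OAS3 and OASL in each library, with separate axes from 0. Points are the 3 Cal27 and the 2 distinct Cal27-shGRK2 libraries, and bars give mean ± SD. OASL falls from a mean of 15.1 to 2.08 FPKM, and OAS3 from 40.9 to 28.6.

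The order of the levels within the family differed between the groups. In Cal27, OAS3 was highest, at 40.9 ± 0.118 FPKM (SD, n = 3). OAS2 (21.0 ± 0.522) and OAS1 (19.6 ± 0.909) came next with overlapping libraries, and OASL was lowest (15.1 ± 0.730). In Cal27-shGRK2 the order was OAS3 (28.6 ± 1.56 FPKM, SD, n = 2), OAS1 (10.3 ± 0.301), OAS2 (6.64 ± 0.423) and OASL (2.08 ± 0.0592), and no neighbours in that order overlapped. OAS1 and OAS2, with overlapping libraries in Cal27, did not overlap in Cal27-shGRK2.

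The FPKM of the 3 synthetases summed to 82.0, 81.8 and 80.7 in Cal27 and to 43.9 and 47.2 in Cal27-shGRK2, or 55.9% of the Cal27 mean. OAS3 made up 50.0% to 50.5% of that sum in Cal27 and 62.5% and 62.9% in Cal27-shGRK2. The share of OAS2 was 24.9% to 26.2% in Cal27 and 14.4% and 14.7% in Cal27-shGRK2. The share of OAS1 moved less, from 23.3% to 25.1% in Cal27 to 22.4% and 23.0%, and its groups did not overlap either.

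The sizes of the falls were compared through the log2 ratio of each pair of members within a library, on the log2(FPKM + 1) scale. The ratio of OAS2 to OAS3 was -0.97, -0.90 and -0.91 in Cal27 and -1.96 and -1.95 in Cal27-shGRK2, a difference of -1.02. For OAS3 over OASL the difference between the groups was 1.88, for OAS1 over OASL 1.52, for OAS2 over OASL 0.86, for OAS1 over OAS2 0.67 and for OAS1 over OAS3 -0.36. The 6 pairs come from 4 genes, so they are not independent, and the share of all gene pairs without overlap was not computed. The groups did not overlap in any of the 6 pairs. Each had an exact permutation p = 0.1, the smallest the 5 libraries allow, and 0.1 after Benjamini-Hochberg adjustment over the 6 pairs, so no pair could pass.

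No fall was called among the listed genes that act elsewhere in the 2-5A pathway. ABCE1, a ribosome recycling factor, had 50.8, 50.5 and 51.8 FPKM in Cal27, against 45.1 and 51.9 FPKM in Cal27-shGRK2, with overlap (log2 fold change -0.08, limma adjusted p = 0.45). PDE12, a phosphodiesterase that degrades 2-5A, had 6.21, 8.07 and 7.02 FPKM in Cal27, against 8.49 and 9.29 FPKM in Cal27-shGRK2. PDE12 was not marked significant in the authors' comparison (q = 0.066), but here it rose by 0.29 on the log2 scale (limma adjusted p = 0.031). That call did not hold when Cal27 replicate 0, the shared library or Cal27-shGRK2 replicate 2 was left out (limma adjusted p = 0.092, 0.080 and 0.23). AKAP7, a protein with a phosphodiesterase domain, lay under the filter of a mean of 1 FPKM, at 0.645 to 0.911 FPKM. Of the 2 tested genes of this list, 0 fell and 1 rose, beside 14.6% lower and 15% higher among all genes tested.

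Among proteins that bind or edit double-stranded RNA, which activates the synthetases, the helicase sensors fell while the kinase PKR did not pass. The difference between PKR and the helicase sensors was not tested. The list had 13 tested genes, of which 4 fell, 1 rose and 8 were not called. Its median log2 fold change was -0.08, beside -0.01 for all genes tested, of which 14.6% were called lower and 15% higher. DDX58, which encodes RIG-I, fell by 0.63 on the log2 scale, from 13.6, 12.6 and 12.3 FPKM to 7.28 and 8.68. DHX58, the related helicase LGP2, fell by 0.60, and IFIH1, the sensor MDA5, fell by 0.28. Leaving out the shared library ended the IFIH1 call (limma adjusted p = 0.16). DICER1, the ribonuclease that processes microRNA precursors, fell by 0.27. Its call ended when the shared library, Cal27-shGRK2 replicate 2 or Cal27 replicate 2 was left out (limma adjusted p = 0.12, 0.074 and 0.051). EIF2AK2, which encodes PKR, a kinase that like the synthetases is switched on by double-stranded RNA, ranged from 22.2 to 23.1 FPKM in Cal27 and was at 19.4 and 21.2 in the knockdown (log2 fold change -0.16, limma adjusted p = 0.094). The editing enzyme ADARB1 rose by 0.35, which needed both Cal27-shGRK2 libraries to pass (limma adjusted p = 0.078 and 0.063 with 1 of them), and ADAR had a log2 fold change of -0.03 (limma adjusted p = 0.75).

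Genes that carry the signal from nucleic acid sensors numbered 10, and 5 of them fell while 2 rose (median -0.15). Shares over all genes tested were 14.6% lower and 15% higher. The nuclear sensor IFI16 fell by 0.85, the adaptor STING (listed as TMEM173) by 0.64, the transcription factor IRF7 by 0.64 and the kinase TBK1 by 0.39. TICAM1, the adaptor of Toll-like receptor 3, rose by 0.42. TRAF3, a ubiquitin ligase of this pathway, rose by 0.29, but not past the threshold once Cal27-shGRK2 replicate 2 was left out (limma adjusted p = 0.13). The DNA sensor cGAS (listed as MB21D1), a nucleotidyltransferase related in structure to the synthetases, also fell, by 0.24 (limma adjusted p = 0.015), from between 17.8 and 18.6 FPKM to 14.7 and 15.7. Its call was lost when the shared library was left out. MB21D1 is named as the structural relative, outside the rule for naming genes.

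Interferons bind receptors whose kinases activate STAT2, which joins IRF9 in ISGF3, the complex that binds the interferon-stimulated response element. Of 9 listed interferon genes only IFNE had a row, at 0.210 to 0.882 FPKM and under the filter, and the others were not analysed here. The 9 receptor and kinase genes had a median of -0.10. In this list 1 gene fell and 2 rose, while 29.6% of all genes tested passed, 14.6% lower and 15% higher. When rescaled to a common total 5 of the list passed, 1 lower and 4 higher, beside 4502 of all 14483 genes tested in that setting. The lambda receptor IFNLR1 rose by 0.64 (1.02 to 1.27 FPKM in Cal27, 2.12 and 2.58 in Cal27-shGRK2) and the kinase JAK1 by 0.36. The gamma receptor IFNGR1 fell by 0.29, but did not pass when the shared library was left out (limma adjusted p = 0.056).

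Of the ISGF3 subunits IRF9 and STAT2, IRF9 fell and STAT2 did not pass, and the difference between them was not tested. IRF9, its DNA-binding subunit, had 15.6, 12.1 and 11.0 FPKM in Cal27, against 2.49 and 2.60 FPKM in Cal27-shGRK2, with no overlap. Its log2 fold change was -1.96 ± 0.12 (SE, n = 3 and 2). STAT2 had between 26.6 and 30.4 FPKM in Cal27, beside 30.1 and 30.0 in the knockdown, and did not pass (log2 fold change 0.10, limma adjusted p = 0.34). In the list of 8 transcription factors and feedback genes the median was 0.06, with 2 genes lower and 2 higher. Beside these counts stand 14.6% lower and 15% higher over all genes tested. USP18, an interferon-induced brake on the receptor, fell by 0.59. The feedback inhibitors SOCS3 and SOCS1 rose by 0.66 and 0.46, though SOCS1 did not pass when Cal27-shGRK2 replicate 2 was left out (limma adjusted p = 0.11).

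**Figure D2:**
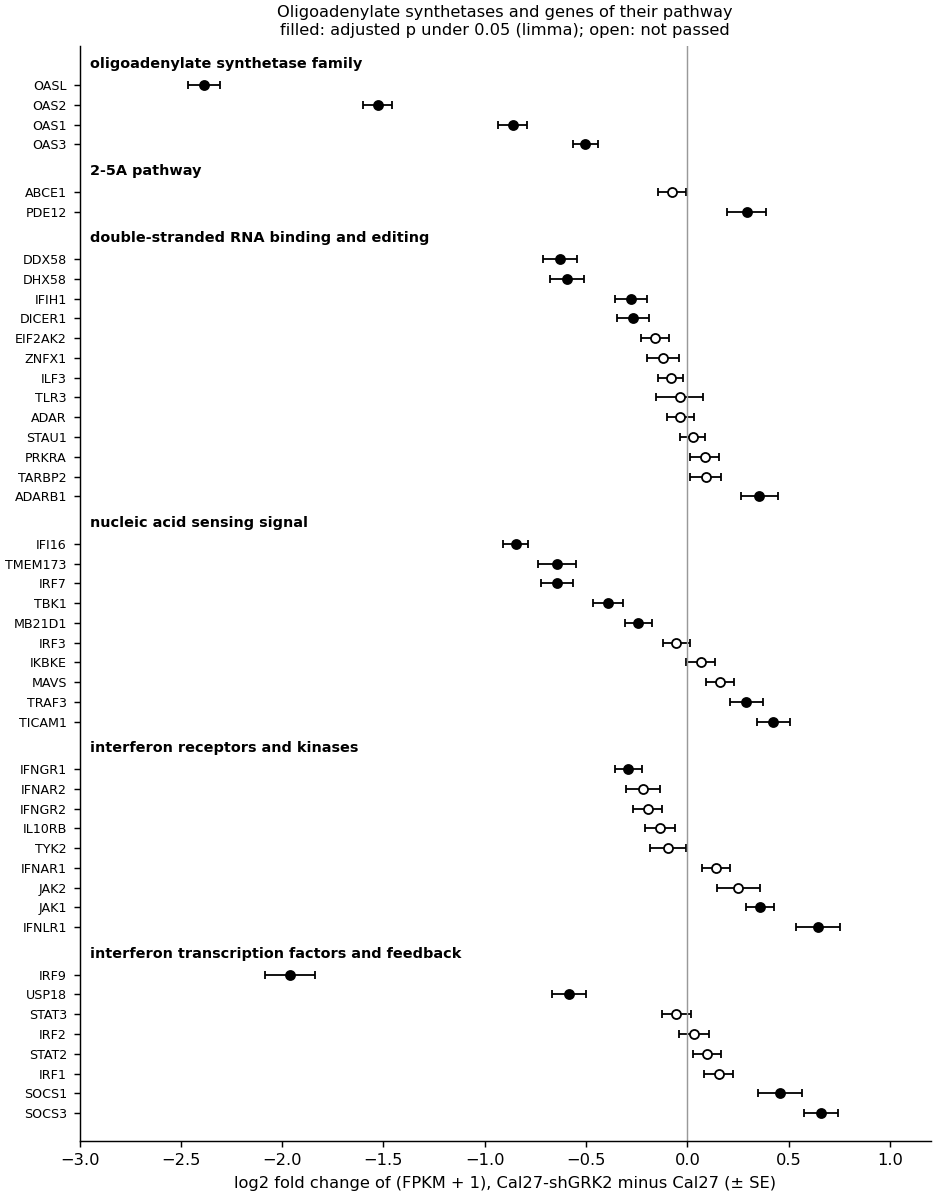
Log2 fold change of (FPKM + 1), Cal27-shGRK2 minus Cal27, with SE, for the tested genes of each list. Filled points passed the adjusted p threshold of 0.05 in limma. The 4 family members lie at or left of -0.50, and so do IRF9, IFI16, TMEM173, IRF7, DDX58, DHX58 and USP18. ABCE1 lies at -0.08.

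Most other interferon-stimulated effector genes also fell. The median log2 fold change of the 36 tested effectors was -0.70, with 29 lower, 1 higher and 6 not called. Among all genes tested 14.6% were lower and 15% higher. On the log2(FPKM + 1) scale the largest falls were IFI6, a protein that guards against apoptosis (-3.04), IFI27 (-2.26), IFI44L (-2.05) and the membrane-restricting IFITM1 (-1.73). PARP12, an ADP-ribosyltransferase, rose by 0.20. It did not pass when Cal27 replicate 0, the shared library or Cal27-shGRK2 replicate 2 was left out (limma adjusted p = 0.093, 0.089 and 0.16). On that scale only IFI6 among the 36 had a larger fall than OASL, and 5 effectors had a larger fall than OAS2, 14 than OAS1 and 24 than OAS3. The order depended on the pseudocount, because IFI44L was low. It had 4.27, 3.27 and 3.19 FPKM in Cal27 and was at 0.104 and 0.0866 in the knockdown, 37.6-fold lower as a ratio of means, beside 8.59-fold for IFI6 and 7.26-fold for OASL. With a pseudocount of 0.1 the log2 fold change of IFI44L was -4.22, beside -3.10 for IFI6 and -2.80 for OASL, and with libraries rescaled to a common total (TPM) IFI44L was at -2.52 and OASL at -2.49. The list and the family were both chosen with earlier results of these data known, so the direction is no independent evidence.

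**Figure D3:**
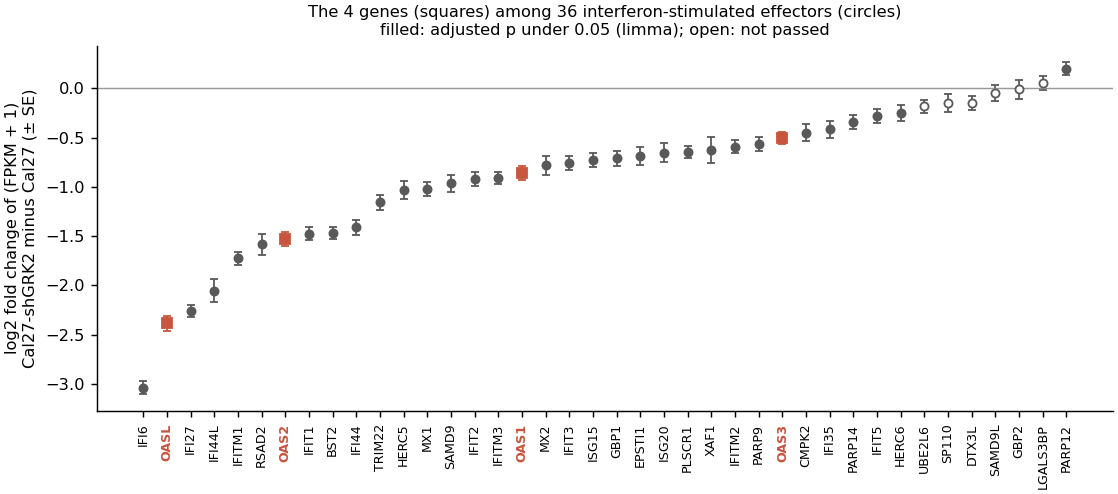
Log2 fold change of (FPKM + 1), Cal27-shGRK2 minus Cal27, with SE, for 36 interferon-stimulated effectors (circles) and the 4 family members (squares), in order of size. On this scale OASL is next to IFI6 at the low end (-2.38), and OAS3 (-0.50) lies among the smaller falls.

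Reported neighbours of the family on chromosome 12, 115 to 524 kb away, mostly did not pass. Of the 3 nearest tested genes on each side of the OAS1-OAS3-OAS2 cluster and of OASL, 11 are reported. They had log2 fold changes between -0.39 and 0.16, and 1 of them passed, beside 29.6% of all genes tested. That gene was ACADS, an acyl-CoA dehydrogenase, 279 kb from OASL (log2 fold change -0.39, limma adjusted p = 0.011), which did not pass with either Cal27-shGRK2 library left out (0.077 and 0.057). PTPN11, a tyrosine phosphatase 397 kb before OAS1, and DDX54, an RNA helicase 145 kb beyond OAS2, had log2 fold changes of 0.09 and 0.10 (limma adjusted p = 0.31 and 0.29). The difference between the members and their neighbours was not tested.

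**Figure D4:**
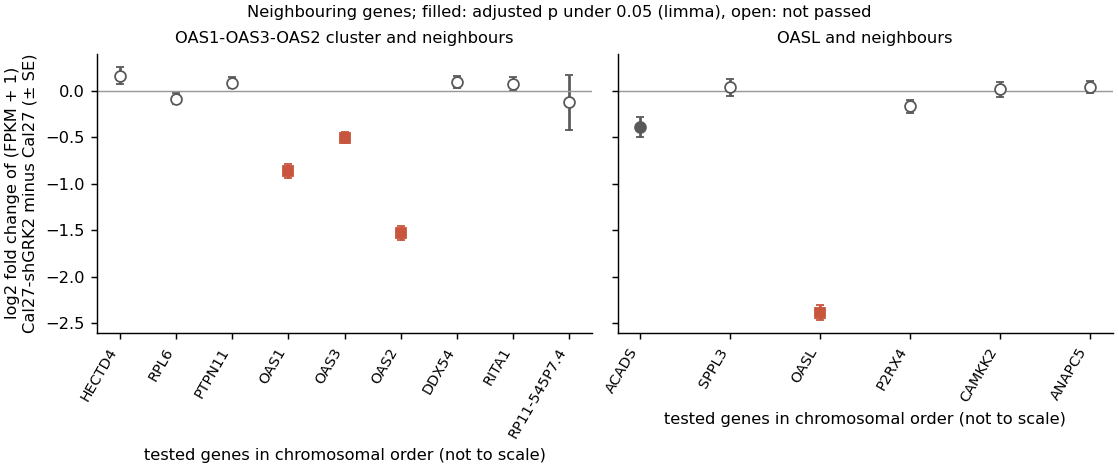
Log2 fold change of (FPKM + 1), Cal27-shGRK2 minus Cal27, with SE, for the members (squares) and 11 of the nearest tested genes, up to 3 on each side (circles), in chromosomal order and not to scale. The neighbours lie between -0.39 and 0.16, and all 4 members lie lower.

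The genes with the most similar profile were taken as those with the smallest root mean square distance over the 5 libraries, on log2(FPKM + 1) with the Cal27 mean removed, a measure that mostly follows the group difference. For OASL they were ID1, a helix-loop-helix inhibitor (distance 0.0615), CSTA, a cysteine protease inhibitor of squamous epithelium (0.0840), and IFI27 (0.0878). For OAS2 they were TP63, the master transcription factor of stratified epithelium (0.0456), the hemidesmosomal collagen COL17A1 (0.0478) and the basal keratin KRT5 (0.0510). For OAS1 they were PERP, a desmosomal p53 target (0.0237), SMAD6, an inhibitor of BMP signalling (0.0437), and STOM, a membrane scaffold protein (0.0453). For OAS3 they were SERPINB5 (0.0139), the mRNA export factor GLE1 (0.0172) and the growth factor KITLG (0.0215).

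The labels and the cell type were checked in the same libraries. GRK2 (listed as ADRBK1) had a mean of 56.9 FPKM in Cal27 and 17.0 in Cal27-shGRK2. All 9 squamous epithelium markers were detected and all 9 fell, their summed FPKM going from between 3140 and 3535 in Cal27 to 1172 and 1216 in Cal27-shGRK2, and the part of this change in the fall of the family was not tested. Of 10 leukocyte markers 3 had a row, summing to 228 to 260 FPKM in Cal27, against 371 and 402 in Cal27-shGRK2, nearly all of it CD74, which rose by 0.68 on the log2 scale (limma adjusted p = 2.1e-06) and which carcinoma cells can also make. CD68, a lysosomal protein abundant in macrophages, rose by 1.29, from 0.766, 1.18 and 1.09 FPKM in Cal27 to 4.30 and 3.52 in the knockdown (limma adjusted p = 7.3e-07). CD14 lay at or under 1.15 FPKM in every library and was not tested. The part of these markers in the fall of the family was not tested. PTPRC, the defining leukocyte marker, was not analysed here. Fibroblast markers (4 of 8 with a row) summed to 4.35 to 4.71 and 4.38 to 4.46 FPKM. The endothelial markers had 1 row of 5, CDH5, at 3.50 to 3.97 and 6.80 to 7.01 FPKM. Each library's FPKM added up to 590163 at the lowest and 644831 at the highest, and sequencing depth is unknown.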

How the data were processed

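The deposited table gives FPKM per library and per condition, as made by the authors. The submitters' processing notes list TopHat2 2.1.0, Bowtie2 2.2.6, Cuffdiff 2.2.1 and hg38 without roles. It also holds the authors' log2 fold change, test statistic (a score), p-value and q-value of their comparison, per the file headers. The annotation and strand setting are not given in the sources used here. Values of 0.0001 stand for 0. Identical columns were counted once. A mean of 1 FPKM or more was required, which left 13377 genes. Their log2(FPKM + 1) was fitted with limma 3.58.1 (R 4.3.3, trend and robust, 3 residual degrees of freedom) for two-sided p-values, adjusted by Benjamini-Hochberg across the 13377. The fit was tested on simulated data. Fold changes on this scale understate those of low genes. Exact permutation tests and motif searches used Python 3.11.15.

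Named genes are GRK2, the family, every tested gene of a list with at most 4, otherwise up to 4 called genes per direction, the 3 nearest profiles per member and the 3 neighbours on each side. Some genes that the rule names are not reported here, and lists and neighbours are counted without them. For comparison PKR, ADAR, STAT2 and MB21D1 were added after their values were seen. Members and lists were chosen with earlier results of these data known. Alternatives were another pseudocount (0.1), filters, 3 scalings, limma settings, a replicate block, leaving out libraries and adding a library computed from the authors' condition value.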

Additional observations from a re-analysis of the deposited data

How the results depend on the processing

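OASL, OAS2, OAS1 and OAS3 kept their direction and passed the threshold in all 15 alternatives run, with log2 fold changes of -2.80 to -2.35, -1.65 to -1.47, -0.92 to -0.83 and -0.56 to -0.45. Leaving out 1 library at a time gave -2.41 to -2.35, -1.58 to -1.47, -0.89 to -0.83 and -0.56 to -0.45.
The 6 differences between members kept their sign in every alternative run for them, and none could pass with 5 libraries. Over all genes tested 3957 passed, and 2600 to 4028 when 1 library was left out. The 2-5A pathway list, with PDE12 as its 1 call, had 0 with no filter, with limma without trend and with the replicate block that takes the shared library as number 1, and 0 to 1 when 1 library was left out. The list of double-stranded RNA proteins had 2 to 5 calls when 1 library was left out. Of the interferon receptors and kinases, 5 were called rather than 3 when rescaled to a common total (TPM), under quantile normalization and with the replicate block that takes the shared library as number 0, 6 with an additional library computed from the authors' condition value, and 2 to 4 when 1 library was left out. Whether same-numbered libraries share more than a number is not stated. After removing group means, the shared library correlated with Cal27 replicates 0 and 1 at 0.080 and -0.071. With 2 Cal27-shGRK2 libraries these centred values mirror each other, so the correlations cannot decide whether libraries were paired. The block left 3960 or 3481 genes past the threshold, with the shared library as number 0 or 1. With that library as number 1 the block ended the calls of PDE12 and PARP12 (adjusted p = 0.098 and 0.14). No other call named was lost under it.

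Of 48 other named genes, 9 lost their call in at least 1 alternative and 2 gained it, P2RX4 under quantile normalization (adjusted p = 0.048) and PTPN11 when rescaled to a common total (0.041). PKR, ADAR, STAT2 and MB21D1, added after their values were seen, are not among the 48, and MB21D1 also lost its call without the shared library. The sign changed only in genes that did not pass. When 1 library was left out, ABCE1 lay between -0.175 and 0.024, ANAPC5 between -0.001 and 0.073, CAMKK2 between -0.051 and 0.070, RP11-545P7.4 between -0.393 and 0.147 and SPPL3 between -0.065 and 0.092. With the block at number 1, ANAPC5 was at -0.001 and CAMKK2 at -0.051, with the block at number 0 RP11-545P7.4 was at 0.081, and under quantile normalization CAMKK2 was at -0.004. The cause was not tested. Depth is unknown, and an arm left with 1 library was assumed to vary like the other.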
